A study of Homo sapiens with 12 samples.

Results

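The D-type cyclins (CCND1, CCND2 and CCND3) and the kinases they activate (CDK4 and CDK6) were followed by gene symbol through a table of 57773 gene identifiers, and all 5 were found. Of the 5, CCND1 and CDK4 passed the filter on RPKM (reads scaled to gene length and library total), while CCND2, CCND3 and CDK6 lay under it in every library and were tested on reads recovered from the RPKM. The cells were RPE1, an immortalised human retinal pigment epithelial line. Cultures received for 24 h either siRNA against Anillin, a scaffold of the cytokinetic ring, or an untargeted siRNA that the labels call Random. Cells stained with the DNA dye Hoechst (2 µg/mL, 60 min, 37 °C) were then sorted by DNA content. The 4 groups of 3 libraries were control 2N and control 4N (untargeted siRNA) with Anillin 2N and Anillin 4N (Anillin siRNA), all from the same line and transfection reagent.

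Cyclins D1, D2 and D3 accumulate when growth factors signal and bind CDK4 or CDK6. The complexes phosphorylate the retinoblastoma protein RB and its relatives, which lifts their hold on E2F transcription factors and lets a cell leave G1. INK4 proteins (CDKN2A to CDKN2D) bind CDK4 and CDK6 and block this step, while p21, p27 and p57 (CDKN1A, CDKN1B and CDKN1C) inhibit CDK2 complexes and also bind those of cyclin D. In an untreated culture the 2N gate holds mostly G1 cells and the 4N gate G2 and mitotic cells, and where cytokinesis fails, G1 cells that kept the DNA of both daughters fall into the 4N gate too.

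The libraries held 17412742 to 61760450 reads in genes, and the labels do not say whether replicates came from separate cultures, so p-values measure the spread between these samples. ANLN lay between 1.25 and 8.42 RPKM in the 6 control libraries and between 0.0395 and 0.0989 in the 6 Anillin libraries. Of the markers of retinal pigment epithelium, OTX2 was at 3.12 to 4.76 RPKM, while RPE65, RLBP1, BEST1 and TYR stayed under 0.5 RPKM in every library and TTR was at 0. The epithelial keratin KRT18 had a mean of 109.1 RPKM, and the sum of KRT8 and KRT18 was 130.6 to 147.7 RPKM in control 2N, 117.1 to 120.4 in control 4N, 108.4 to 120.8 in Anillin 2N and 94.4 to 104.4 in Anillin 4N. No marker of blood (6 genes) or of other epithelia and muscle (7 genes) reached 0.5 RPKM in a library. The summed level of the 10 retinal pigment epithelium markers was 3.56 to 4.45 RPKM in control 2N, 3.39 to 4.13 in control 4N, 3.89 to 4.44 in Anillin 2N and 4.78 to 5.31 in Anillin 4N, nearly all of it OTX2.

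CCND1 (ENSG00000110092) spans chr11:69641087-69654474 on the plus strand of GRCh38 in GENCODE 29. CCND2 (ENSG00000118971) spans chr12:4273772-4305350 on the plus strand. CCND3 (ENSG00000112576) spans chr6:41934933-42050357, CDK4 (ENSG00000135446) chr12:57747727-57756013 and CDK6 (ENSG00000105810) chr7:92604921-92836594, all on the minus strand. All 5 are protein-coding genes. Their genomic spans of 13388, 31579, 115425, 8287 and 231674 bases are the lengths by which the deposited RPKM had been divided. Exons cover 36.1% of the span of CCND1 and 38.2% of that of CDK4, but 5.03% of CCND3 and 5.29% of CDK6, so RPKM by span placed the last pair far lower than their reads per exonic length.

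The sequences at RefSeq starts of the kinases and of CCND3 are shown because the promoter source used here matched these genes and not CCND1 or CCND2. CDK4 and CDK6 also differ in a motif. Each run holds 250 bases before and 50 bases after a RefSeq transcription start (GRCh38.p14), on the gene's strand. Capitals mark the letters of an E-box (CACGTG), a GC box (GGGCGG) or a CCAAT box (CCAAT), read on either strand. Also searched on both strands were E2F letters, either TTTCCCGC or its variant TTTGGCGC. The same was done for a CHR element (TTTGAA), an AP-1 site (TGAGTCA), a CRE (TGACGTCA) and a TATA box (TATAAA). For CDK4 the window is chr12:57752261-57752560, for CDK6 (the start farthest upstream of 2 listed) chr7:92836524-92836823, and for CCND3 (the start farthest upstream of 3 listed) chr6:42048639-42048938, all on the minus strand.
CDK4: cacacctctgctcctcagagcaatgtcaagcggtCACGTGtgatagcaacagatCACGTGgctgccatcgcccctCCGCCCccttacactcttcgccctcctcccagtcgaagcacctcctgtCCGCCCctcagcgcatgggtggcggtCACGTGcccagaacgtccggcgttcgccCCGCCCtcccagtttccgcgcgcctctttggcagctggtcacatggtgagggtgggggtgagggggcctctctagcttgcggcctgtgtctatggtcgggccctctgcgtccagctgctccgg
CDK6: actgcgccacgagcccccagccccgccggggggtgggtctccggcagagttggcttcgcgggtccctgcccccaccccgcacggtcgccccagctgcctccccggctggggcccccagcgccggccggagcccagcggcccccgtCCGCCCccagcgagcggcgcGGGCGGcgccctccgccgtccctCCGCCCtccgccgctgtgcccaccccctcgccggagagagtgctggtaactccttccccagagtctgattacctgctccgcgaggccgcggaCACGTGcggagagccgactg
CCND3: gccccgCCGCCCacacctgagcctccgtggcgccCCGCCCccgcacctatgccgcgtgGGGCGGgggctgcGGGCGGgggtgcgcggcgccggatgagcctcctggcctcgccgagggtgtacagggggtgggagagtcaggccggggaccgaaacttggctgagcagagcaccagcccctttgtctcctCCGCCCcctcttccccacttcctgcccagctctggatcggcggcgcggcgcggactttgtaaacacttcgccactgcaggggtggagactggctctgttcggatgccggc

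The CDK4 window held 3 E-boxes, which began 216, 196 and 101 bases before the start, and the CDK6 window held 1, which began at base 31 after it. At least 1 E-box was present in 7.26% of 35116 RefSeq promoter windows of this length, and at least 3 in 0.0940%. GC boxes numbered 3, 3 and 5 in the CDK4, CDK6 and CCND3 windows, and 45.0% of all windows held at least 1. None of the 3 printed windows held the letters searched for CCAAT (34.6% of all windows), E2F (2.27%), CHR (15.2%), AP-1 (4.95%), CRE (1.85%) or TATA (11.5%). The other listed CCND3 windows each held 1 CCAAT box, which began 136 and 64 bases before their starts, with 4 and 0 GC boxes. The other listed CDK6 window held none of the motifs searched. These matches describe letters and do not show binding.

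Per exonic length, CCND1 was the most abundant of the 5 genes and CCND2 the least. The mean over all 12 libraries was 87.9 RPM per exonic kilobase for CCND1, 45.4 for CDK4, 6.66 for CCND3, 4.83 for CDK6 and 0.0997 for CCND2. On this scale CCND1 made up 91.4% to 93.9% of the summed D-type cyclin level in every library, CCND3 6.03% to 8.40% and CCND2 0.0466% to 0.184%. Divided by genomic span instead, CCND1 made up 98.6% to 99.1%. Whether the authors counted intronic reads is not given in the sources used here, so levels per exonic length assume exonic reads. The length is the union of all annotated exons of a gene, 4830 bases for CCND1 and 5802 for CCND3. A gene whose expressed transcripts are shorter than this union is placed too low, and the shares shift with it.

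**Figure D1:**
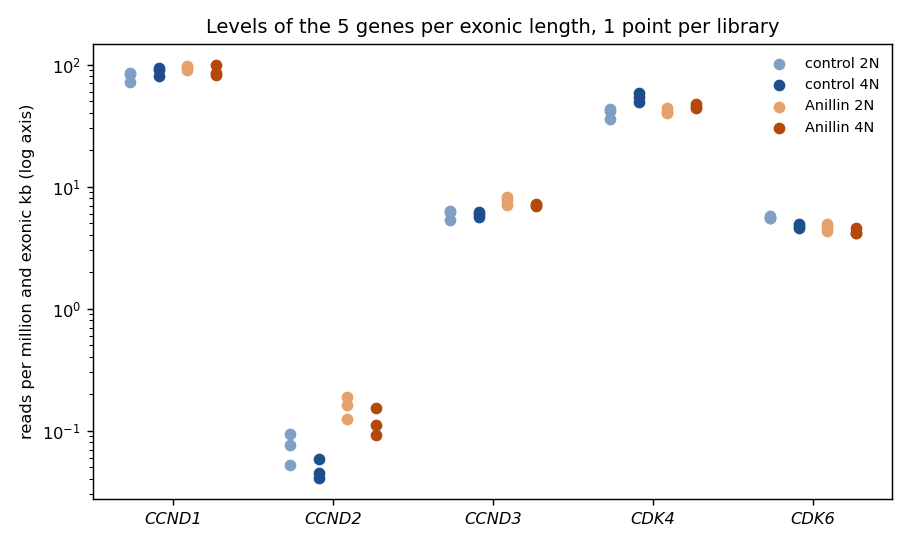
Each point is 1 library, with the gene on the x axis, RPM (reads scaled to library total) per exonic kilobase on a log y axis, and colours for the 4 groups of 3 libraries. CCND1 and CDK4 sit highest, with means of 87.9 and 45.4, CCND3 and CDK6 at 6.66 and 4.83, and CCND2 lowest at 0.0997.

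CDK4 was between 6.27 and 7.73 times the level of CDK6 per exonic length in control 2N and between 10.1 and 12.7 times in control 4N. The ratio was 8.09 to 10.3 in Anillin 2N and 10.3 to 10.9 in Anillin 4N. Control 2N thus lay below the other 9 libraries. By genomic span the same ratio was 45.3 to 91.5, so its size, but not this order of control 2N, hangs on the length used.

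Cyclin D1 made up most of the D-type cyclin reads, and no change in it passed the test in any of the comparisons. CCND1 was at 30.6, 26.0 and 30.3 RPKM in control 2N and 33.6, 29.1 and 32.5 in control 4N. It was at 32.5, 33.9 and 35.2 RPKM in Anillin 2N, then 29.7, 30.9 and 36.0 in Anillin 4N. Every Anillin 2N library lay above every control 2N library, and all other pairs of groups overlapped. The order of the group means was Anillin 2N (33.9 ± 1.37 RPKM, SD, n = 3), Anillin 4N (32.2 ± 3.37), control 4N (31.7 ± 2.35) and control 2N (28.98 ± 2.57), and no neighbours in this order differed by the test.

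Between the 2N groups CCND1 changed by 0.22 ± 0.09 on the log2 scale (SE, limma-trend adjusted p = 0.0889), which did not pass the threshold of 0.05. It passed on recovered reads (0.23 ± 0.07, limma-voom adjusted p = 0.0251), on log2 RPM (reads scaled to library total, 0.0297), and with quantile (0.0353) or median-of-ratios scaling (0.0329). Between the 4N groups the change was 0.02 ± 0.09 (95% interval -0.18 to 0.22, limma-trend adjusted p = 0.888). It was 0.16 with quantile scaling (limma-trend adjusted p = 0.0863) and 0.09 with median-of-ratios scaling (0.376), and neither passed. The change from 2N to 4N was 0.13 ± 0.09 in control cells (adjusted p = 0.277) and -0.08 ± 0.09 in Anillin cells (adjusted p = 0.725), both by limma-trend. LTO1, on the opposite strand, overlaps 1399 bases at the end of CCND1 and had 384 to 1193 reads a library, against 7287 to 25011 for CCND1.

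Cyclin D2 was barely expressed, and more of it was read after Anillin siRNA in both fractions. CCND2 had 25, 19 and 23 reads in control 2N, 10, 13 and 14 in control 4N, 55, 55 and 20 in Anillin 2N, then 12, 20 and 31 in Anillin 4N, 297 reads in all. As RPM (reads scaled to library total only) these were 0.545, 0.674 and 0.374 in control 2N and 0.418, 0.292 and 0.321 in control 4N. For Anillin 2N they were 1.16, 1.35 and 0.888, and for Anillin 4N 0.655, 1.11 and 0.789. Within each fraction all 3 Anillin libraries lay above all 3 control libraries, though Anillin 4N replicate 1 was below control 2N replicate 2.

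CCND2 was higher in Anillin 2N than in control 2N by 1.24 ± 0.25 on the log2 scale (limma-voom adjusted p = 0.000742), a 2.36-fold difference. It was higher in Anillin 4N than in control 4N by 1.29 ± 0.32 (limma-voom adjusted p = 0.00244), or 2.45-fold. On log2(RPM + 0.5), which understates changes of low genes, the rises were 0.66 and 0.67 (limma-trend adjusted p = 0.00341 and 0.00146). The siRNA effects in the 2 fractions differed by 0.06 ± 0.40 (95% interval -0.79 to 0.90, limma-voom adjusted p = 0.950), an interval too wide to tell equal effects from unequal ones. Without any 1 library the 2 rises stayed past the threshold (6 of 6 fits each, log2 change 0.95 to 1.38 and 1.14 to 1.41). Between fractions the values were -0.53 ± 0.31 in control cells (limma-voom adjusted p = 0.199) and -0.48 ± 0.25 in Anillin cells (0.381), and neither passed. The order of means was Anillin 2N (1.13 ± 0.230 RPM), Anillin 4N (0.850 ± 0.231), control 2N (0.531 ± 0.151) and control 4N (0.343 ± 0.0659), in which the step from Anillin 4N to control 2N passed narrowly, as given further on.

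The antisense gene CCND2-AS1 overlaps 2413 bases of CCND2 and had 0 to 11 reads a library, 57 in all. The processed pseudogene CCND2P1 had 0 reads. Since strand use in counting is not given in the sources used here, reads of CCND2 and its antisense partner cannot be told apart where they overlap.

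Cyclin D3 rose after Anillin siRNA in both fractions, by less than D2 but on many more reads. CCND3 was at 36.6, 31.0 and 35.7 RPM in control 2N and 34.7, 32.9 and 35.9 in control 4N. It was at 48.0, 45.5 and 40.7 in the Anillin 2N libraries, and at 40.0, 41.8 and 41.4 in those of Anillin 4N. All 6 Anillin libraries lay above all 6 control libraries. The rise was 0.38 ± 0.07 on the log2 scale between the 2N groups (1.30-fold, limma-voom adjusted p = 0.000267) and 0.25 ± 0.07 between the 4N groups (1.19-fold, adjusted p = 0.00748, limma-voom). Both held without any 1 library, at 0.32 to 0.43 and 0.21 to 0.29.

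No change of CCND3 with DNA content passed the test. The value of control 4N against control 2N was -0.005 ± 0.07 (95% interval -0.15 to 0.14, limma-voom adjusted p = 0.965), and that of Anillin 4N against Anillin 2N was -0.13 ± 0.07 (95% interval -0.28 to 0.02, limma-voom adjusted p = 0.396). The order of means was Anillin 2N (44.7 ± 3.71 RPM), Anillin 4N (41.0 ± 0.944), control 4N (34.5 ± 1.52) and control 2N (34.4 ± 3.01), with the only step past the test between Anillin 4N and control 4N. The pseudogenes CCND3P1 and CCND3P2 had 5 and 0 reads in all.

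**Figure D2:**
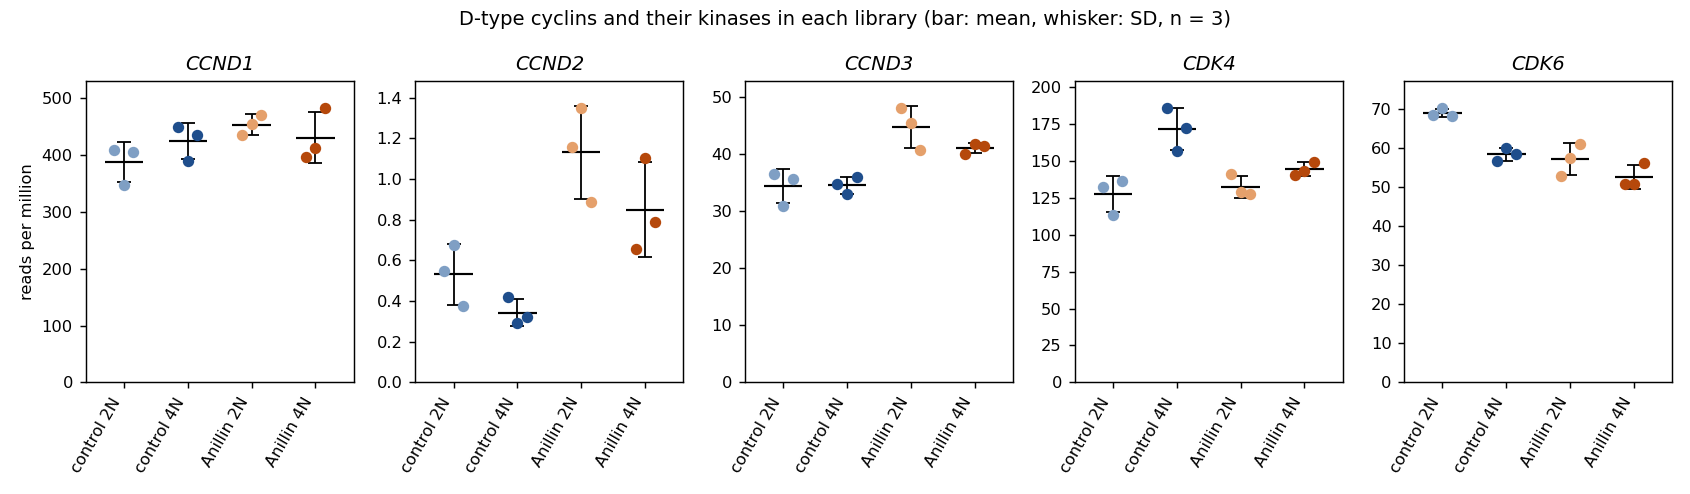
RPM (y axis, from 0, a separate scale for each gene) in each of the 12 libraries, grouped along the x axis, with points for libraries, bars for means and whiskers for the SD of 3 libraries. CCND3 is above 40 or just under it (39.98) in all 6 Anillin libraries and under 37 in all 6 control libraries, CDK4 stands highest in control 4N (157 to 185), and CDK6 stands highest in control 2N (68.3 to 70.1).

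CDK4 rose with DNA content in control cells. It was at 15.9, 13.7 and 16.4 RPKM in control 2N and 22.4, 18.9 and 20.8 in control 4N. It was at 17.0, 15.5 and 15.4 RPKM in Anillin 2N, then 17.0, 17.2 and 18.0 in Anillin 4N. Every control 4N library lay above the other 9, which ranged from 13.7 to 18.0 RPKM. CDK4 rose from 15.4 ± 1.46 to 20.7 ± 1.73 RPKM between control 2N and control 4N (SD, n = 3 and 3), a log2 change of 0.42 ± 0.08 (1.34-fold, limma-trend adjusted p = 0.00273). This call held without any 1 library (0.34 to 0.48) and with quantile scaling, where the rise was 0.27 (limma-trend adjusted p = 0.00395). Next in the order of means came Anillin 4N (17.4 ± 0.550 RPKM), Anillin 2N (16.0 ± 0.891) and control 2N.

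In Anillin cells the change in CDK4 from 2N to 4N was 0.12 ± 0.08 (95% interval -0.06 to 0.30, limma-trend adjusted p = 0.493), which did not pass. The Anillin 4N level of CDK4 differed from that of control 4N by -0.24 ± 0.08 (0.847-fold, limma-trend adjusted p = 0.0280), and between the 2N groups it was at 0.06 ± 0.08 (adjusted p = 0.634, limma-trend). The fall between the 4N groups no longer passed when control 4N replicate 1 was left out (-0.18, limma-trend adjusted p = 0.108) or replicate 3 (0.0703), without Anillin 4N replicate 1 (0.0788) or 2 (0.0688), without a filter (0.0586), and with quantile scaling, where it was -0.07 (0.272). On recovered reads it was -0.24 ± 0.07 (limma-voom adjusted p = 0.00771). The difference between the siRNA effects of the fractions was -0.30 ± 0.11 by limma-trend (adjusted p = 0.104) and -0.30 ± 0.10 by limma-voom on reads (adjusted p = 0.0461).

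TSPAN31 and MARCH9 lie on the opposite strand and overlap 2485 and 916 bases of CDK4. They had 265 to 943 and 234 to 764 reads a library, against 2576 to 8392 for CDK4, and the pseudogene CDK4P1 had 1 read in all. In bulk libraries, fewer cells that express a gene and less RNA per cell cannot be told apart, and the share of G2 and mitotic cells in the 4N gate can differ between siRNAs. The E2F target CCNA2, which is highest from S phase to mitosis, was also highest in control 4N, at 4.24 ± 0.899 RPKM in control 2N, 26.9 ± 1.54 in control 4N, 1.59 ± 0.162 in Anillin 2N and 4.94 ± 0.363 in Anillin 4N. Between the 2N groups, where CCNA2 was lower after Anillin siRNA, the log2 change of CDK4 was 0.06 ± 0.08. The part of cell cycle stage in the CDK4 level was not tested.

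CDK6, the other kinase, fell with DNA content in control cells, where CDK4 rose, and was lower after Anillin siRNA in the 2N fraction. It was at 68.4, 70.1 and 68.3 RPM in control 2N and 56.6, 60.1 and 58.3 in control 4N. After Anillin siRNA it was at 52.9, 57.4 and 61.0 in the 2N fraction and 50.8, 50.8 and 56.1 in the 4N fraction. Control 2N stood above all other libraries, and the Anillin 4N libraries lay below those of control 4N. The Anillin 2N libraries overlapped both 4N groups. The order of means was control 2N (68.9 ± 1.01 RPM, SD, n = 3), control 4N (58.3 ± 1.73), then Anillin 2N (57.1 ± 4.10) and last Anillin 4N (52.6 ± 3.04), and only the first step of these passed a test, the second not being tested.

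CDK6 fell by 0.28 ± 0.06 on the log2 scale from control 2N to Anillin 2N (0.824-fold, limma-voom adjusted p = 0.000854), and by 0.24 ± 0.06 from control 2N to control 4N (0.848-fold, limma-voom adjusted p = 0.00256). Both calls held without any 1 library. Between the 4N groups it was at -0.14 ± 0.06 (95% interval -0.27 to -0.02, limma-voom adjusted p = 0.0613), which did not pass. That value passed without Anillin 4N replicate 3 (-0.20, adjusted p = 0.0277), with only the 4N groups fitted (0.0398) and on log2 RPM (0.0407). These were 1 of 6 fits without a library and 2 of 6 other settings, and the rest did not pass. With quantile scaling the CDK6 value was -0.03 (limma-voom adjusted p = 0.693). In Anillin cells CDK6 was at -0.10 ± 0.06 in 4N against 2N (limma-voom adjusted p = 0.454). The summed keratins KRT8 and KRT18 had means in the same order of groups as CDK6, and their part in its level was not tested. The interaction was 0.14 ± 0.08 (95% interval -0.04 to 0.31, limma-voom adjusted p = 0.306).

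By comparison, 3 of the 5 genes passed between the 2N groups (CCND2 and CCND3 higher, CDK6 lower), against 28.6% of all genes tested on RPKM and 28.6% of those tested on reads. Between the 4N groups 3 passed (CCND2 and CCND3 higher, CDK4 lower), against 51.5% and 44.4%, a share near the background. From control 2N to control 4N 2 passed (CDK4 higher, CDK6 lower), against 37.1% and 36.3%, and from Anillin 2N to Anillin 4N 0 passed, against 3.58% and 4.04%. At an unadjusted p under 0.05 there were also 0 in that comparison by either fit. For the interaction 0 passed with each gene in its own fit, against 15.7% and 14.5%, and CDK4 was at an unadjusted p under 0.05 by limma-trend. These comparisons share groups, so their values are not independent of each other.

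Anillin 4N cells were also set against control 2N cells, which differ from them in both siRNA and DNA content. There 3 genes passed, against 29.9% of all genes on RPKM and 27.4% on reads. CDK6 fell by 0.38 ± 0.06 (0.768-fold, limma-voom adjusted p = 7.11e-05) and CCND3 rose by 0.25 ± 0.07 (1.19-fold, limma-voom adjusted p = 0.0131), a call lost without Anillin 4N replicate 3 (0.0594). CCND2 was higher by 0.76 ± 0.28 (limma-voom adjusted p = 0.0496). The CCND2 call was lost without control 2N replicate 1 (0.0641) or 3 (at 0.47, 0.285), without Anillin 4N replicate 2 (0.178) or 3 (0.1075), without a filter (0.0964), with quantile scaling (0.0540), with only those groups fitted (0.0699) and on log2 RPM (at 0.39, 0.0734). CCND1 was at 0.15 ± 0.09 (limma-trend adjusted p = 0.242) and CDK4 at 0.18 ± 0.08 (0.118), and neither passed, though CDK4 did with quantile scaling (0.19, 0.0217).

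**Figure D3:**
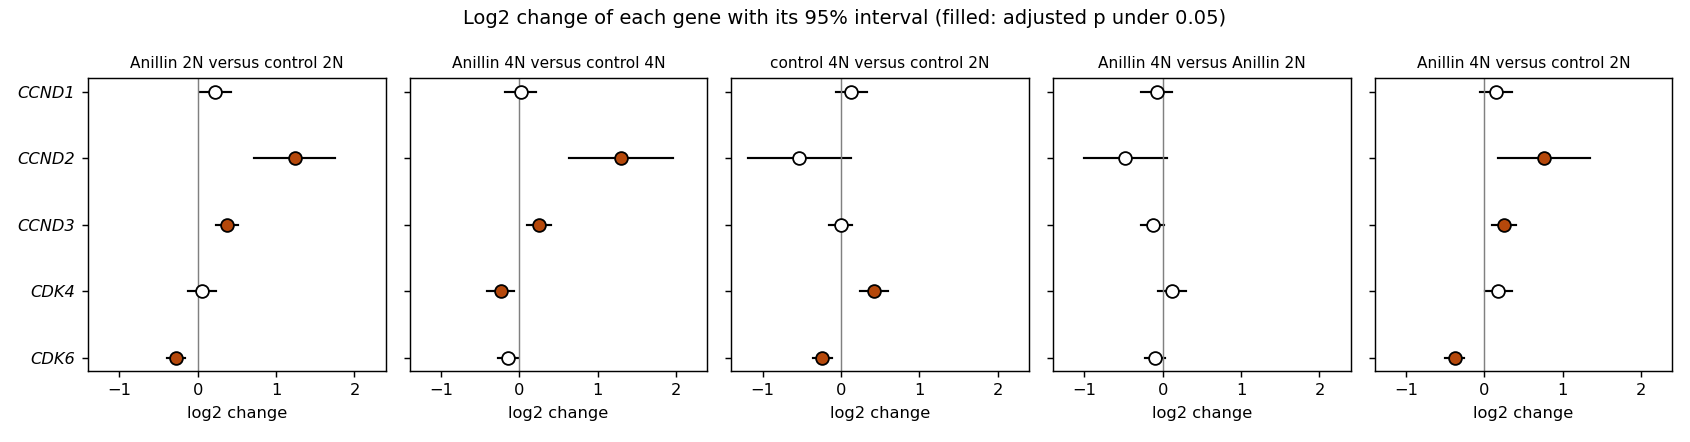
Log2 change (x axis) of each of the 5 genes (y axis) in 5 comparisons of groups of 3 libraries, with 95% intervals as lines and filled points for an adjusted p under 0.05 (limma-trend on RPKM for CCND1 and CDK4, limma-voom on reads for the others). CCND2 and CCND3 are filled to the right of 0 in the comparisons of Anillin with control cells, CDK4 is filled on the right in control 4N against control 2N (0.42), and no point is filled in Anillin 4N against Anillin 2N.

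Over the 12 libraries, log2 RPM of CCND2 and CCND3 had a Pearson r of 0.79, of CCND1 and CCND3 0.62, and of CCND3 and CDK6 -0.64. CDK4 and CDK6 had an r of -0.42. These describe 12 libraries in 4 groups that share library totals and are not tests.

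Among all genes tested, those whose log2(RPKM + 0.5) followed each gene most closely over the 12 libraries were listed by a fixed rule. For CCND1 they were RPL22P2 (r = 0.92), NADK (0.90) and C2CD2L (0.88). For CCND2 they were ADRA2A (0.95), APOE (0.94) and CSAD (0.94), and for CCND3 TPRG1L (0.95), FTH1P11 (0.95) and the ferritin heavy chain FTH1 (0.95), whose pseudogene FTH1P11 can share its reads. CDK4 was followed by AC002985.1 (0.98), GPS2 (0.98) and NOSIP (0.98), and CDK6 by ALDH18A1 (0.98), ENC1 (0.96) and SLC26A2 (0.96). ALDH18A1, an enzyme of proline synthesis, had a mean of 2.59 RPKM in control 2N, 2.20 in control 4N, 2.09 in Anillin 2N and 1.95 in Anillin 4N, the order of groups seen for CDK6.

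Of the 7 inhibitors of these kinases, all measured, 4 rose, 2 fell and 1 did not pass in Anillin 4N against control 4N (median log2 change 0.20, against -0.05 over all genes, of which 51.5% were called). Among inhibitors of the CIP/KIP family, CDKN1A (p21) was at 27.0 ± 1.13 RPKM in control 2N, 31.1 ± 2.70 in control 4N, 42.7 ± 2.02 in Anillin 2N and 85.2 ± 1.56 in Anillin 4N. CDKN1C (p57), at 0.410 ± 0.170 RPKM in control 4N, rose by 0.80 ± 0.12 (limma-trend adjusted p = 0.000438, 1.25 with a pseudocount of 0.1, 0.56 with 1, and 1.33 on reads) and CDKN1B (p27) by 0.30 ± 0.05 (adjusted p = 0.000675, limma-trend). The 4 INK4 genes went different ways. CDKN2C (p18) was at 1.49 ± 0.136 RPKM in control 2N, 4.86 ± 0.246 in control 4N, 1.18 ± 0.118 in Anillin 2N and 1.61 ± 0.0579 in Anillin 4N, and fell by 1.35 ± 0.06 between the 4N groups (limma-trend adjusted p = 1.76e-07).

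CDKN2D (p19) was high in control 4N alone, at 7.10 ± 0.603 RPKM against 1.88 to 2.25 in the means of the other groups, and fell by 1.47 ± 0.11 between the 4N groups (limma-trend adjusted p = 3.20e-06). CDKN2B (p15) was at 0.20 ± 0.07 (limma-trend adjusted p = 0.0438), a call lost without a filter (0.0863), with only the 4N groups fitted (0.0818), without control 4N replicate 1 (at 0.13, 0.159) or 3 (0.0891) and without any 1 Anillin 4N library (0.0678 to 0.101). CDKN2A (p16) was at 0.09 ± 0.05 (limma-trend adjusted p = 0.158), and passed with median-of-ratios (0.15, 0.0146) or quantile scaling (0.20, 0.00283). In the other comparisons, 3 inhibitors rose and 1 fell between the 2N groups, 3 rose and 1 fell from control 2N to control 4N, and 2 rose from Anillin 2N to Anillin 4N (3 rose and 1 fell on reads). The shares called over all genes were 28.6%, 37.1% and 3.58% on RPKM in these comparisons, and 4.04% on reads in the last.

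Of the substrates, RB1 was at 0.501 ± 0.00185 RPKM in control 2N, 0.666 ± 0.0215 in control 4N, 0.412 ± 0.00992 in Anillin 2N and 0.413 ± 0.00797 in Anillin 4N. RB1 fell by 0.35 ± 0.03 between the 4N groups on log2(RPKM + 0.5) (limma-trend adjusted p = 9.95e-06). It had passed the filter of 0.5 RPKM through the control groups, which favours a fall in that fit. On reads, at least 1352 in every library, it fell by 0.69 ± 0.05 (limma-voom adjusted p = 4.45e-10), and no fixed RPKM is added there. RBL1 (p107), tested on reads only, fell by 1.68 ± 0.10 (limma-voom adjusted p = 1.15e-10). RBL2 (p130) was at 0.01 ± 0.04 (limma-trend adjusted p = 0.850). From control 2N to control 4N all 3 rose on reads, against 36.3% of all genes called. None of the 3 passed from Anillin 2N to Anillin 4N, where 4.04% of all genes on reads did. Of the CDK-activating kinase, which phosphorylates CDK4 and CDK6, CCNH fell by 0.28 ± 0.04 between the 4N groups (limma-trend adjusted p = 0.000285) and MNAT1 by 0.45 ± 0.07 on reads (limma-voom adjusted p = 3.12e-05). The kinase subunit CDK7 was at -0.08 ± 0.03 (limma-trend adjusted p = 0.0605), and passed without control 4N replicate 3 (0.0455).

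Of 13 genes for folding and turnover of the complexes, 7 were measured on RPKM, and 1 rose and 3 fell between the 4N groups (median -0.05, against -0.05 over all genes). On reads all 13 were measured, with 3 higher and 3 lower. Both shares lie near those of all genes, 51.5% on RPKM and 44.4% on reads. CUL4B, a scaffold of the ubiquitin ligases that can take up D-type cyclins, fell by 0.55 ± 0.03 (limma-trend adjusted p = 4.91e-07), and the chaperone HSP90AB1 by 0.35 ± 0.05 (adjusted p = 0.000141, limma-trend). SKP2, an F-box protein of the ligase that takes up p27, rose by 0.15 ± 0.04 (limma-trend adjusted p = 0.00581) and by 0.28 on reads.

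Of 15 factors known to act on CCND1 transcription, 11 were measured on RPKM, and 1 rose and 6 fell between the 4N groups (median -0.23, against -0.05 over all genes, of which 51.5% were called). The AP-1 subunit FOSL1 fell by 1.27 ± 0.14 (limma-trend adjusted p = 4.04e-05). MYC, which binds E-boxes, fell from 23.1 ± 0.639 to 12.7 ± 0.984 RPKM (-0.84 ± 0.08, limma-trend adjusted p = 1.74e-05), and its means were 21.2 ± 2.28 in control 2N and 13.9 ± 0.828 after Anillin siRNA in that fraction. The part of MYC in the CDK4 level was not tested. STAT3 rose by 0.38 ± 0.03 (limma-trend adjusted p = 1.30e-05). From Anillin 2N to Anillin 4N none of the 11 passed, against 3.58% of all genes tested on RPKM.

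Downstream of RB, all 16 measured E2F targets fell in Anillin 4N against control 4N (median -1.33, against -0.05 over all genes), and all 16 fell in Anillin 2N against control 2N (median -0.87, against -0.02). Over all genes 51.5% and 28.6% were called in these comparisons. The RPKM filter can favour such falls, since a target can pass it through a control group alone. CCNE2, named for this limit, had means of 0.727 RPKM in control 2N and 0.261 in control 4N. Its means were 0.228 in Anillin 2N and 0.0982 in Anillin 4N. On reads 19 of 20 and 18 of 20 targets fell, against 44.4% and 28.6% of all genes called. RRM2, a subunit of ribonucleotide reductase, was at 10.8 ± 2.73 RPKM in control 2N, 30.3 ± 3.42 in control 4N, 2.93 ± 0.198 in Anillin 2N and 5.14 ± 0.264 in Anillin 4N. From control 2N to control 4N 9 of the 16 rose and 1 fell, against 37.1% of all genes called on RPKM. From Anillin 2N to Anillin 4N 4 rose and 1 fell, against 3.58%. In the 2 comparisons in which these targets were lower after Anillin siRNA, the 5 genes went different ways. CCND2 and CCND3 were higher in both, CDK6 was lower between the 2N groups (-0.28) and CDK4 between the 4N groups (-0.24). CCND1 passed in neither by limma-trend.

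**Figure D4:**
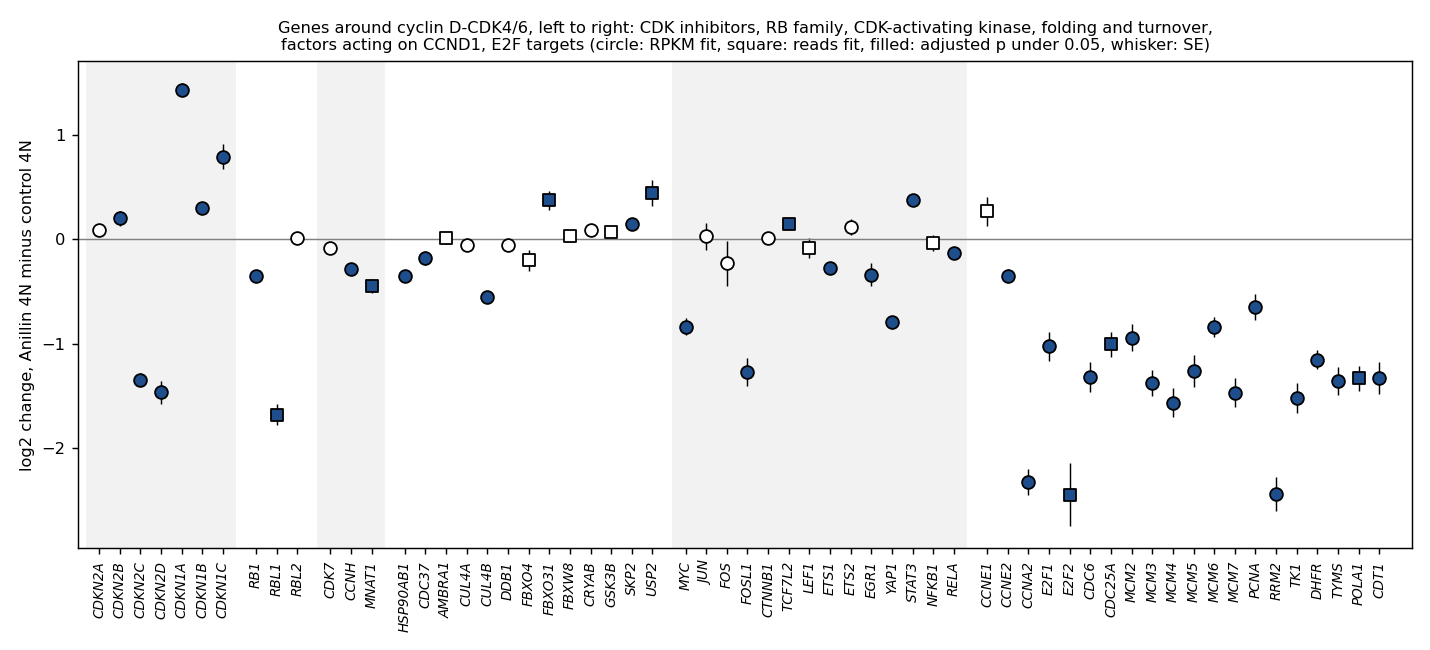
Log2 change in Anillin 4N against control 4N (y axis) for each measured gene of 6 lists (x axis, lists shaded in turn), with SE as whiskers, circles from limma-trend on RPKM, squares from limma-voom on reads for genes under the RPKM filter, and filled points for an adjusted p under 0.05. CDKN1A stands highest at 1.44, the inhibitors CDKN2C and CDKN2D are at -1.35 and -1.47, and the E2F targets on the right are below 0 apart from CCNE1.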

How the data were processed

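The authors deposited 1 table of RPKM values for 12 RNA-seq libraries. The submitters' processing notes name CASAVA 1.8.2, TopHat2, edgeR and hg19 without a role. The sources used here do not give the annotation, the counting tool or the use of strand, and the labels name both a stranded mRNA kit and ribo-depleted RNA. Each value the authors deposited equalled whole reads (tolerance 0.01 read) over the genomic span and a scaled library total: spans of GENCODE 29 gave whole reads for 29238 genes, the 5 genes studied included, and a common divisor for 9333. RPM use the authors' scaled totals (0.951 to 1.04 of the recovered totals).

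Genes with RPKM of at least 0.5 in at least 3 libraries (12892) were tested by limma-trend on log2(RPKM + 0.5), which understates changes of low genes. Genes with at least 10 recovered reads in at least 3 libraries (22404) were tested by limma-voom. Both fits (limma 3.58.1, R 4.3.3) had 1 mean per group, two-sided p-values adjusted by Benjamini-Hochberg over all genes tested, and a threshold of 0.05, and were tested on simulated data. CCND1, CDK4 and other genes past the RPKM filter have values from limma-trend, the rest from limma-voom. Replicates were numbered in accession order. No pair of replicates agreed within sampling noise (chi-square per gene 2.38 to 14.5).

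The genes, lists and naming rules were chosen with earlier results of these data known. All genes of the inhibitor, RB and CDK-activating kinase lists could be named. Of other lists these were the 2 largest changes in each direction between the 4N groups by limma-trend, among genes past the threshold. That ranking leaves out genes under the RPKM filter and places low genes lower than a ranking on reads can. CCNE2 is named outside it, for a limit of the filter. Exonic lengths are the union of GENCODE 29 exons, and promoters are from RefSeq (GRCh38.p14), whose table matched CCND3, CDK4 and CDK6. Coordinates are of GRCh38, not of hg19. Tables and figures used pandas 2.3.3, numpy 2.4.6 and matplotlib 3.10.9.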

Additional observations from a re-analysis of the deposited data

How the results depend on the processing

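Alternatives were pseudocounts of 0.1 and 1, no filter, quantile and median-of-ratios scaling, only the groups compared, limma-voom or log2 RPM for each gene, and each library left out. RPKM without a filter for each of the 5 genes was chosen after seeing the data. Pseudocounts were not tried for genes tested by limma-voom. Of the alternative values for the 5 genes 375 kept their direction and side of the threshold, 19 fell short of it, 10 newly passed and 17 changed sign. For the other named genes these were 296, 8, 3 and 2. No value that changed sign passed the threshold, as reported or under the alternative. Quantile scaling turned CCND1 in control 4N against control 2N to -0.00515 and the CCND2 interaction to -0.0854, which was -0.00747 on RPKM without a filter. CCND3 in control 4N against control 2N turned to 0.00463 with median-of-ratios scaling, 0.00776 on log2 RPM and 0.00227 on RPKM without a filter. Leaving out single libraries gave -0.0661 to 0.0374 for the latter, -0.0920 to 0.347 for the CCND2 interaction, -0.0654 to 0.0719 for CCND1 and -0.0130 to 0.0520 for RBL2 between the 4N groups, and -0.0196 to 0.108 for CDK4 between the 2N groups. The number of the 5 genes called moved from 3 to 1 on RPKM without a filter in Anillin 4N against control 4N and likewise from 3 to 1 against control 2N. Between the 4N groups CCND3 and CDK4 lost their calls there and CCND2 kept its call at a log2 change of 0.04, and against control 2N CCND2 and CCND3 lost theirs. Filter and scale changed together in this alternative, and the cause was not tested. Leaving out single libraries gave 1 (without Anillin 4N replicate 3) to 3 in Anillin 4N against control 2N. For the interaction it moved from 0 to 1 (CDK4) with limma-voom for each gene and with log2 RPM. Over all genes, limma-trend and limma-voom called 3682 and 6399 between the 2N groups, 4782 and 8135 from control 2N to control 4N, 461 and 905 from Anillin 2N to Anillin 4N, 3854 and 6147 in Anillin 4N against control 2N, and 2019 and 3258 for the interaction, with more genes tested by limma-voom. Between the 4N groups 2582 of 6638 calls were higher as deposited and 3505 of 6687 with quantile scaling. Levels divided by genomic span in place of exons were 31.7 (CCND1), 0.0226 (CCND2), 0.335 (CCND3), 17.4 (CDK4) and 0.256 (CDK6). CCND2 rested on 10 to 55 reads a library, which limits its precision. No paired analysis was possible because the labels give no replicate number shared between groups.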
